A study of Mus musculus with 10 samples.

Results

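The type I interferon module comprised 36 genes, picked by name: the interferon receptor chains, the transcription factors that act below them, and genes that interferon turns on. All 36 symbols were found among the 24202 gene symbols of the table, and all 36 passed the filter on low values (a mean of at least 10 normalized counts), as did 16767 genes in all. Levels were read in 10 bulk RNA-seq libraries of whole MB-49 tumors, 5 from mice given PIIO-1 and 5 from mice given PBS. MB-49 is a mouse bladder cancer cell line, and in both groups 100000 cells were injected subcutaneously into the right flank of hLrrc32 knock-in mice, which carry the human gene for GARP. GARP is the surface protein that displays latent TGF-beta, and PIIO-1 is an antibody to GARP, called a4D3 in the sample titles. It was given into the peritoneum at 200 ug per mouse on days 6 and 9, and all tumors were taken on day 10 and broken up into single cells before RNA was isolated. The labels give no age or sex of the mice, and no label ties a tumor to its own animal, so the tests measure only the spread between these samples, which may be technical.

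Library totals ran from 29689555 to 35299028 whole reads in PIIO-1 tumors and from 18843192 to 37581521 in PBS tumors, and the thinnest reading of any member in any tumor rested on 462 reads (Mx2). A normalized count is a gene's read count divided by the size factor of its library. The epithelial keratin genes Krt8 (59166 normalized counts on average in PIIO-1 and 56281 in PBS tumors) and Krt18 were abundant, but the urothelial genes Upk2, Upk3a, Upk3b and Krt20 were too low to be tested, with at most 7.41 normalized counts in any tumor. PIIO-1 tumor 5 and PBS tumor 4 lay farthest from the centre of the first 2 principal components of all genes tested. In whole tumors, a lower level can mean fewer cells of a type or less RNA per cell, and these cannot be told apart.

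Type I interferons (interferon-beta and the interferon-alphas) are released when a cell senses nucleic acid of a virus, or its own DNA or RNA in the wrong place. They bind a receptor of 2 chains, IFNAR1 and IFNAR2, whose kinases JAK1 and TYK2 phosphorylate STAT proteins, STAT2 among them. With IRF9 these form a complex, ISGF3, that binds the interferon-stimulated response element in the promoters of interferon-stimulated genes. In tumors, type I interferon is known for priming CD8 T cells through dendritic cells, and long-lasting interferon signalling for resistance to therapy. Many of these genes also answer to interferon-gamma.

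The response element was looked for as the letters GAAA, any 2 bases, then GAAA, on both strands, with overlapping copies counted one by one, in RefSeq promoter windows of GRCm38.p6, which run from 250 bases before to 50 bases after a gene's start. Of the 26 members with a window, 12 held the letters in at least 1 window (46.2%), against 1079 of the 27025 genes of the RefSeq promoter table (3.99%). A match is a description of letters and not of binding. Isg15, Bst2 and Ifit3 are shown since they carry more than 1 copy and their values are described further on, Oas3 for its single copy, and Ifnar1 because its window holds none of them; capitals mark the copies.
Isg15, chr4:156200769-156201068, minus strand: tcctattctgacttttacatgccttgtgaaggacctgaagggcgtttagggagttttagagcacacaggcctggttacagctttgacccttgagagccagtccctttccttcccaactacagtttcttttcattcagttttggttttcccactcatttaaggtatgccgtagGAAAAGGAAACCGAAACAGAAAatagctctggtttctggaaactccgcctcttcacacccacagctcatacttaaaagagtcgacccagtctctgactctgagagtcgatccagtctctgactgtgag
Bst2, chr8:71537423-71537722, minus strand: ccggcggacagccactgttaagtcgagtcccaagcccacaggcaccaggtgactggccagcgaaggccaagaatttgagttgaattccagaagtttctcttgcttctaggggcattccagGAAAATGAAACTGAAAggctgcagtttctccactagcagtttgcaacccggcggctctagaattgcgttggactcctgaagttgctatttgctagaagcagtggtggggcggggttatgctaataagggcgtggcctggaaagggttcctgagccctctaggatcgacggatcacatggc
Ifit3, chr19:34583279-34583578, plus strand: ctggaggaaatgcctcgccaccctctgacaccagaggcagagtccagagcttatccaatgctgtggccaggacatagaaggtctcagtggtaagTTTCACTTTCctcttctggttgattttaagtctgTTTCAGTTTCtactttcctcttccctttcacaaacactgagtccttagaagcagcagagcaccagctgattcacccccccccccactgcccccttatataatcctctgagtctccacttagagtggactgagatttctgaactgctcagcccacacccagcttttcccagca
Oas3, chr5:120777610-120777909, minus strand: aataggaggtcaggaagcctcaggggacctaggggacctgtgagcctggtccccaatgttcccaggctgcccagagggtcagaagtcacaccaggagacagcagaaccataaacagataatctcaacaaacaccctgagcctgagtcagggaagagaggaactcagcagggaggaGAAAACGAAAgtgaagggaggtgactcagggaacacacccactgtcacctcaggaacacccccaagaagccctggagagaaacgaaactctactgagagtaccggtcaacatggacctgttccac
Ifnar1, chr16:91484965-91485264, plus strand: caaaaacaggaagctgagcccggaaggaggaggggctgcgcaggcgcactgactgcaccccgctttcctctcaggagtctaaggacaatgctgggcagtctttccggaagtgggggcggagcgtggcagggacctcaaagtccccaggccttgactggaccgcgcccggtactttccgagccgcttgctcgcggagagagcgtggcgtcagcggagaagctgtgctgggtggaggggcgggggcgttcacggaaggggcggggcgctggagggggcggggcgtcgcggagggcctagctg

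The 3 copies of Isg15 overlap in 1 run that begins 78 bases before the start, and the 2 copies of Bst2 overlap in a run that begins 130 bases before it. Ifit3 has 2 separate copies, read from the other strand, 156 and 122 bases before the start, and Oas3 has its copy at 75 bases. Besides these, Ifih1, Oas1a, Trim30a, Ifitm3, Stat2, Rsad2, Eif2ak2 and Ifit1 held the letters, and the windows of Ifi44, Oasl1, Oasl2, Herc6, Isg20, Irf7, Xaf1, Ifi35, Cmpk2, Irf9, Dtx3l, Ifnar1, Ifnar2 and Ifit2 did not.

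The design asks what the GARP antibody does to transcripts of the tumor, and for the interferon module no member passed the test of that contrast. Of the 36 members, 31 stood lower in PIIO-1 tumors, where 48.9% of all genes tested did. The median difference over the members was -0.088 (log2 of normalized count + 1, PIIO-1 minus PBS, as for all differences given here), beside 0.0027 over all genes tested, and single differences ran from -0.31 for Ifi44 to 0.13 for Ifnar1. limma, fitted over all 16767 genes with Benjamini-Hochberg adjustment, called 0 members at an adjusted p under 0.05 and 0% of all genes, and the smallest adjusted p of a member was 0.837. At an unadjusted p under 0.05 limma counted 2 members, Bst2 and Parp9, where 944 of all 16767 genes (5.63%) passed that mark. Both stood lower in PIIO-1 tumors, as did 464 of the 944 (2.77% of all genes tested). On whole reads recovered from the values, edgeR and DESeq2 also called 0 members. At an unadjusted p under 0.05 edgeR counted 1 member (5.81% of all genes) and DESeq2 1 (6.04%). Over all genes edgeR called 0% and DESeq2 0.0179% (Ifi208, Gm17828 and Trib1, none of them a member). Members share tumors and regulators, so their signs are not independent counts.

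The 95% intervals show what size of difference the spread between tumors leaves room for. Of 36 intervals, 34 include 0, and all 36 lie within a 2-fold difference in either direction. A 1.5-fold lower level lies inside the interval of 4 members (Ifi44, Ifit2, Mx1 and Ifit3), and a 1.5-fold higher level inside that of 0 members. The values of the 2 groups were fully apart for 0 of 36 members, where 0.853% of all genes had groups that do not overlap.

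**Figure D1:**
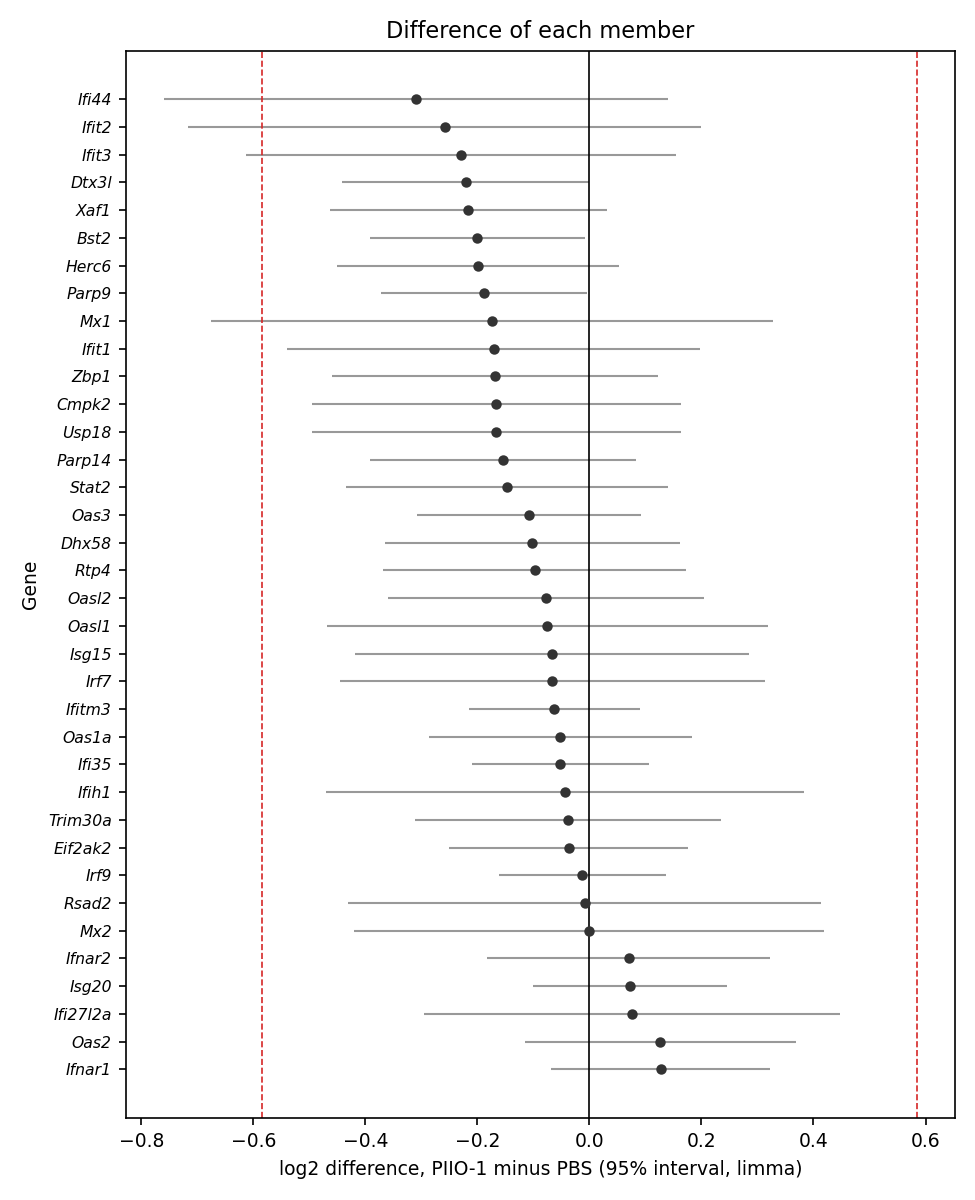
Each point is the log2 difference of 1 member, PIIO-1 minus PBS, with its 95% interval from limma (10 tumors), ordered from the lowest at the top to the highest at the bottom; dashed lines mark a 1.5-fold difference. Most points lie left of 0, from -0.31 (Ifi44) to 0.13 (Ifnar1), and nearly all intervals cross 0.

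Both receptor chains were measured, and both stood slightly higher in PIIO-1 tumors. Ifnar1, which encodes the chain that brings TYK2 (chr16:91485238-91507441, plus strand, GRCm38), had 2960.3, 3651, 3271, 3968 and 4120.1 normalized counts in PIIO-1 tumors 1 to 5, against 3225, 3055, 3154, 3233 and 3702 in PBS tumors 1 to 5. PIIO-1 tumors 4 and 5 lay above every PBS tumor and PIIO-1 tumor 1 below them, so the groups overlap. The group levels were 3594 ± 481 normalized counts in PIIO-1 tumors and 3274 ± 249.8 in PBS tumors (SD, n = 5 each), a difference of 0.13 (SE 0.089), the most positive of the 36, with an interval of -0.068 to 0.32 and a limma adjusted p of 0.858. Ifnar2, the chain that binds interferon most tightly and brings JAK1, differed by 0.070 (SE 0.12).

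The transcription factor genes gave the order of tumors that most of the module shares. Irf7 (chr7:141262706-141266481, minus strand), which encodes the factor that amplifies interferon-alpha production, had 6664, 9322, 10411, 13955 and 7454 normalized counts in PIIO-1 tumors 1 to 5, against 9829, 8934, 8976, 8941 and 11995 in PBS tumors 1 to 5. PIIO-1 tumor 4 was the highest of all 10 and PIIO-1 tumors 1 and 5 the lowest, with the PBS tumors between them. The means were nearly equal (9561 ± 2869 normalized counts in PIIO-1 tumors and 9735 ± 1319 in PBS tumors), and the difference was -0.066 (SE 0.17). Stat2, which encodes a STAT protein that joins IRF9 in ISGF3, had 5139.8, 5652, 6576, 9019.8 and 5669 normalized counts in PIIO-1 tumors 1 to 5, against 7286, 6513, 6534, 6612 and 7922 in PBS tumors 1 to 5. PIIO-1 tumors 1, 2 and 5 were below every PBS tumor and tumor 4 above them. Its difference was -0.15 (SE 0.13), with an interval of -0.43 to 0.14. Irf9, the DNA-binding part of ISGF3, varied least of the 3, from 3661 to 4506 normalized counts in PIIO-1 and from 3704 to 4277 in PBS tumors, and differed by -0.013 (SE 0.068).

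Of the 3 nucleic acid sensors, Zbp1 was the most abundant. It encodes a sensor of Z-form RNA and DNA that can start necroptosis (chr2:173206612-173218923, minus strand), and it had 6893, 7829, 8735, 11821 and 6915 normalized counts in PIIO-1 tumors 1 to 5, against 9448, 9203, 9532, 8064 and 10331 in PBS tumors 1 to 5. PIIO-1 tumors 1, 2 and 5 again lay below every PBS tumor and tumor 4 above. The difference was -0.17 (SE 0.13), with an interval of -0.46 to 0.12 and a limma adjusted p of 0.865. Ifih1 (MDA5, a sensor of long double-stranded RNA) ran over a 2.43-fold range within PIIO-1 tumors, from 913 to 2222 normalized counts, against 1201 to 1791 in PBS tumors, with a difference of -0.044 (SE 0.20). Dhx58 (LGP2, which tunes MDA5) differed by -0.10 (SE 0.12).

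The OAS enzymes make 2-5A, the signal that turns on RNase L, and PKR (Eif2ak2) halts translation when it meets double-stranded RNA. Oasl2, an OAS-like protein and the most abundant of these 6 genes in normalized counts, had 8541, 9507, 11863, 13747 and 9715 normalized counts in PIIO-1 tumors 1 to 5, against 12665, 10872, 11462, 8996 and 11846 in PBS tumors 1 to 5. Its lowest value was in PIIO-1 tumor 1 and its highest in PIIO-1 tumor 4, and its difference was -0.077 (SE 0.13). Oas3 had 7052, 6839.7, 8022, 8713 and 6046 normalized counts in PIIO-1 tumors 1 to 5, against 7127, 8254, 7779, 7593 and 8516 in PBS tumors 1 to 5, with tumors 1, 2 and 5 of the PIIO-1 group under every PBS tumor, and differed by -0.11 (SE 0.091). Oas2, which makes 2-5A too, was the one gene of this group with a positive difference. It had 3901, 4202, 5432, 5817 and 4087 normalized counts in PIIO-1 tumors 1 to 5, against 4012, 4265, 4409, 3865 and 4684 in PBS tumors 1 to 5. PIIO-1 tumors 3 and 4 were above every PBS tumor while the others lay within the PBS range, and the difference was 0.13 (SE 0.11), with an interval of -0.12 to 0.37. Eif2ak2, Oas1a and Oasl1 differed by -0.037, -0.052 and -0.075. Oas1a has close copies in the same cluster (Oas1b, Oas1c, Oas1g and Oas1h), so its reads may be split with them.

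The IFIT genes, whose proteins bind foreign RNA ends and block their translation, had a median difference of -0.23 over 3 genes, the lowest of the role groups with all tumors in. It was -0.38 without PIIO-1 tumor 4, -0.12 without tumor 5 and -0.11 without tumor 1. Parp9, Parp14 and Dtx3l had the lower median without tumor 1 (-0.18) and, barely, without tumor 5 (-0.1243 against -0.1242). Ifit2 (chr19:34550694-34576419, plus strand) had 2953, 4187, 4585, 7791 and 3744 normalized counts in PIIO-1 tumors 1 to 5, against 5251, 4851, 4668, 5109 and 6664 in PBS tumors 1 to 5. The 4 PIIO-1 tumors other than tumor 4 lay below every PBS tumor, and tumor 4 lay above them, a 2.64-fold range within the treated group against 1.43-fold among PBS tumors. The groups stood at 4652 ± 1856 normalized counts in PIIO-1 tumors and 5308 ± 790.4 in PBS tumors, a difference of -0.26 (SE 0.21) with an interval of -0.72 to 0.20 and a limma adjusted p of 0.866. Ifit3 had 2037, 2676, 3049, 4069 and 1989 normalized counts in PIIO-1 tumors 1 to 5, against 3134, 3019, 2924, 2815 and 3829 in PBS tumors 1 to 5, with PIIO-1 tumors 1, 2 and 5 below every PBS tumor and tumor 4 above. It differed by -0.23 (SE 0.18), and Ifit1 differed by -0.17 (SE 0.17). Ifit3 has a near copy, Ifit3b, with which its reads may be shared.

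Ifitm3 and Bst2, 2 membrane proteins that stop viruses at entry and at release, were the most abundant members, also per length of exon. Per 1000 exon bases, Ifitm3 stood at 38828 in PIIO-1 tumors and 40501 in PBS tumors and Bst2 at 21837 in PIIO-1 tumors and 25046 in PBS tumors, followed by Isg15 at 8777 in PIIO-1 tumors and 8956 in PBS tumors. Ifitm3 had 24358, 27108, 26484, 29533 and 24143 normalized counts in PIIO-1 tumors 1 to 5, against 28484, 28487, 29276, 25289.9 and 25761 in PBS tumors 1 to 5; the groups overlap and the difference was -0.062 (SE 0.070). Bst2 (chr8:71534255-71537456, minus strand), which encodes tetherin, had 19709, 19768, 21368, 21509 and 16242 normalized counts in PIIO-1 tumors 1 to 5, against 25026, 23420.0, 23427, 19586 and 21624 in PBS tumors 1 to 5. PIIO-1 tumor 5 was the lowest of the 10, and the other 4 lay within the PBS range. The groups stood at 19719 ± 2122 normalized counts in PIIO-1 tumors and 22617 ± 2078 in PBS tumors, a difference of -0.20 (SE 0.088) with an interval of -0.39 to -0.0077. It had the smallest unadjusted limma p of the members, 0.0428, and an adjusted p of 0.837.

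Mx1 and Mx2 encode dynamin-like GTPases that trap viral parts, and Mx2 is annotated as a polymorphic pseudogene. Mx1 spanned 2270.0 to 5822 normalized counts in PIIO-1 and 2929.7 to 4780.0 in PBS tumors with a difference of -0.17 (SE 0.23), and Mx2 differed by -0.00044 (SE 0.19). Rsad2 (viperin, which makes a chain-ending nucleotide) and its neighbour Cmpk2 (a nucleotide kinase) differed by -0.0087 (SE 0.19) and -0.17 (SE 0.15). Rsad2 ran from 6479.7 (tumor 1) to 13659.8 (tumor 4) in the PIIO-1 group and from 6861 to 11219.6 in PBS tumors. Isg20, an exonuclease gene, was one of 5 members with a positive difference, 0.072 (SE 0.079).

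Isg15 encodes a ubiquitin-like protein that is joined to other proteins, by Herc6 in mouse, and taken off by Usp18, which also damps the receptor. Isg15 (chr4:156199424-156200818, minus strand) had 4766, 5771, 6926, 9819 and 5894 normalized counts in PIIO-1 tumors 1 to 5, against 7380.2, 6436, 6435, 5879.7 and 7723 in PBS tumors 1 to 5. PIIO-1 tumor 4 was 2.06-fold above PIIO-1 tumor 1, and the PBS tumors lay between them. The difference was -0.066 (SE 0.16), with an interval of -0.42 to 0.28. Herc6 had 1382, 1443, 1804, 2213 and 1457 normalized counts in PIIO-1 tumors 1 to 5, against 1945, 1902, 1936, 1738 and 1853 in PBS tumors 1 to 5. PIIO-1 tumors 1, 2 and 5 lay under every PBS tumor and tumor 4 above, and the difference was -0.20 (SE 0.11) with a limma adjusted p of 0.837. Usp18 was lowest in PIIO-1 tumor 5 (1246 normalized counts) and highest in tumor 4 (2444), against 1986 to 2284 in PBS tumors, and differed by -0.17 (SE 0.15).

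Parp9 and Dtx3l encode partners of 1 ADP-ribosylating and ubiquitin-ligating complex and are read from opposite strands of a shared start region, and Parp14 is a related enzyme. Parp9 and Dtx3l hardly varied among PBS tumors. Dtx3l (chr16:35926511-35939151, minus strand) had 4886, 5191, 5481, 6922 and 4262 normalized counts in PIIO-1 tumors 1 to 5, against 6212, 6103, 6083, 6112 and 6259.6 in PBS tumors 1 to 5. The PBS values lay within 1.03-fold of each other, the PIIO-1 values within 1.62-fold, and 4 of the 5 PIIO-1 tumors were below every PBS tumor while tumor 4 was above. Its difference was -0.22 (SE 0.10), with an interval of -0.44 to 0.00014.

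Parp9 had 5751, 5744, 6148, 7331 and 4972 normalized counts in PIIO-1 tumors 1 to 5, against 6717, 6632, 6913, 7087 and 6518 in PBS tumors 1 to 5, again with 4 PIIO-1 tumors below every PBS tumor and tumor 4 above. The groups stood at 5989 ± 863 normalized counts in PIIO-1 tumors and 6774 ± 227 in PBS tumors, a difference of -0.19 (SE 0.084) with an unadjusted limma p of 0.0455 and an adjusted p of 0.837. Parp14 had 11392, 12605, 13061, 17330.4 and 10940.1 normalized counts in PIIO-1 tumors 1 to 5, against 14312, 13659, 13522, 15839.9 and 14472 in PBS tumors 1 to 5 and differed by -0.15 (SE 0.11). Parp9 and Dtx3l share 458 exon bases, and since the strand setting of the counting is not given, reads there cannot be told apart.

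Among the other interferon-stimulated genes, Ifi44 had the most negative difference of the module. It had 1483, 1239, 1683, 1759 and 756 normalized counts in PIIO-1 tumors 1 to 5, against 1635, 2039, 1610.3, 1306 and 1712 in PBS tumors 1 to 5. PIIO-1 tumor 5 stood far below the rest, and the other PIIO-1 tumors lay within or near the PBS range. The difference was -0.31 (SE 0.21), with an interval of -0.76 to 0.14, and -0.11 without PIIO-1 tumor 5. Xaf1, which encodes an antagonist of the apoptosis inhibitor XIAP, had 2817, 3288, 3572, 4526 and 2854 normalized counts in PIIO-1 tumors 1 to 5, against 3948, 3931, 3909.8, 3567 and 4178 in PBS tumors 1 to 5, with tumors 1, 2 and 5 of the PIIO-1 group under every PBS tumor, and differed by -0.22 (SE 0.11) with a limma adjusted p of 0.837. Trim30a, a regulator of NF-kappaB signalling in mouse, had 3839, 4619, 5055, 6821 and 4958 normalized counts in PIIO-1 tumors 1 to 5, against 5457, 5049, 5191, 4444 and 5445 in PBS tumors 1 to 5 and differed by -0.038 (SE 0.12). Rtp4, Ifi35 and Ifi27l2a differed by -0.10, -0.052 and 0.076; Ifi27l2a has a close copy, Ifi27l2b.

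**Figure D2:**
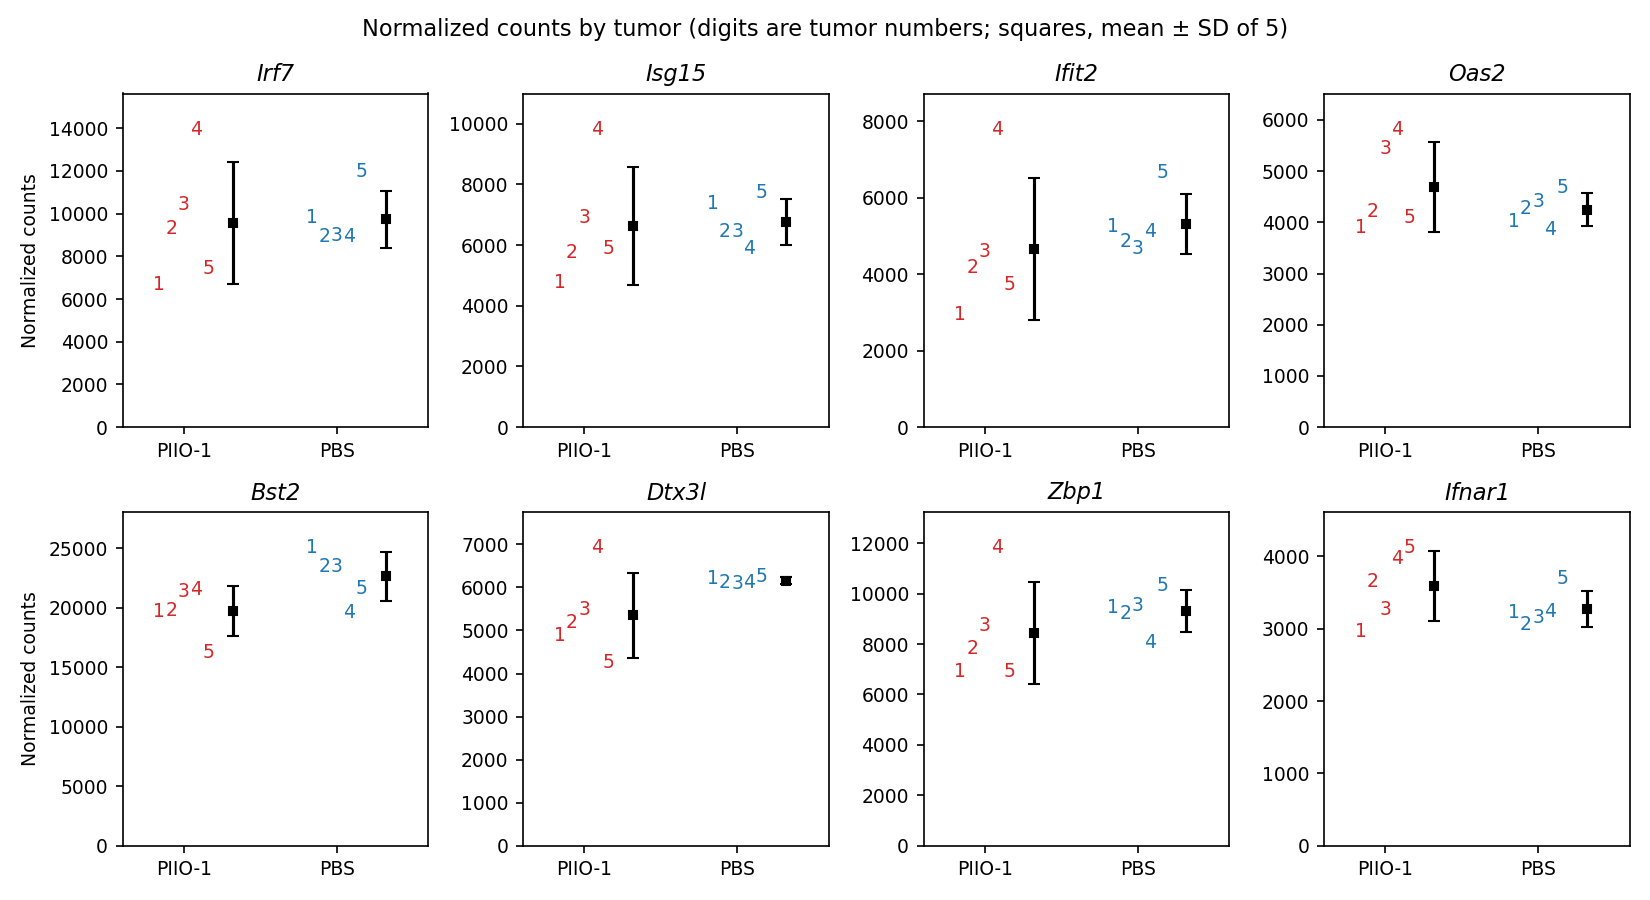
Normalized counts of 8 members in each of the 5 PIIO-1 (red, left) and 5 PBS (blue, right) tumors; digits are tumor numbers, squares and bars the mean ± SD of 5 tumors, and each axis starts at 0. In all but Bst2 and Ifnar1, PIIO-1 tumor 4 is the highest of the 10, as with Irf7 at 13955.

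The members moved together from tumor to tumor. PIIO-1 tumor 4 held the highest value of the 10 for 30 of 36 members, where it did for 11.1% of all genes tested. The lowest value was in PIIO-1 tumor 1 for 18 members and in PIIO-1 tumor 5 for 14, where these tumors were lowest for 13.2% and 15.5% of all genes. Both ends of the range were PIIO-1 tumors for 30 members, against 25.9% of all genes. PIIO-1 tumor 4 exceeded every PBS tumor for 34 members (22% of all genes), PIIO-1 tumor 1 was below every PBS tumor for 29 (18.8%) and PIIO-1 tumor 5 for 23 (23.5%). Relative to the PBS mean, the median member stood at 0.789, 0.876, 0.998, 1.24 and 0.790-fold in PIIO-1 tumors 1 to 5. The mean log2 value over the 36 members was 11.73, 11.93, 12.09, 12.41 and 11.77 in PIIO-1 tumors 1 to 5, against 12.08, 12.08, 12.04, 11.97 and 12.23 in PBS tumors 1 to 5.

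**Figure D3:**
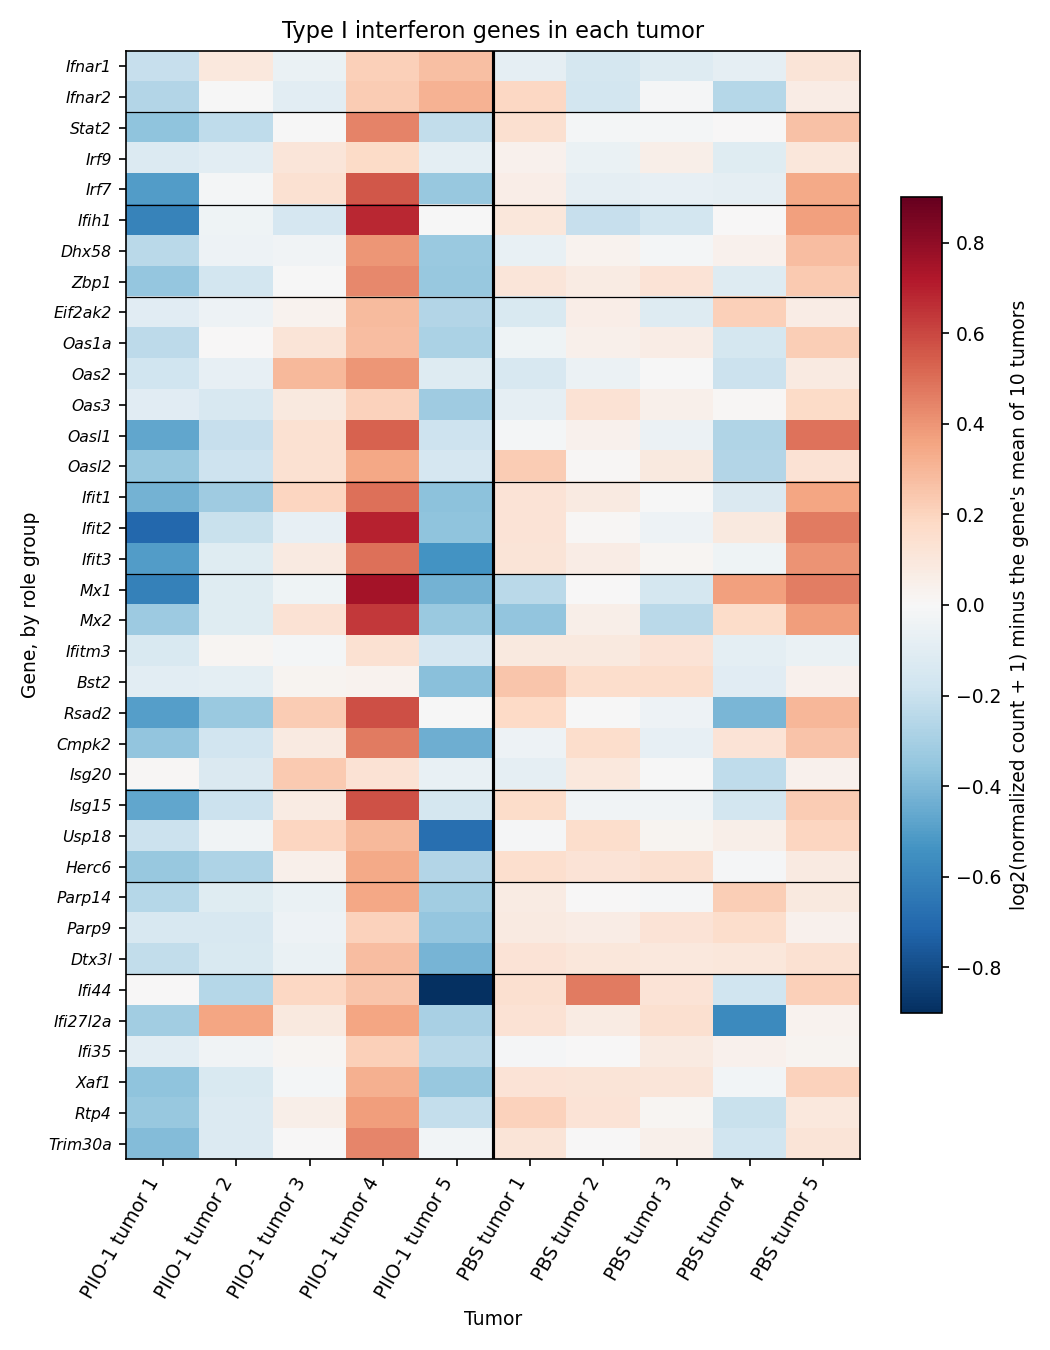
Colour gives each member's log2(normalized count + 1) in a tumor minus its mean over the 10 tumors, with the PIIO-1 tumors left of the black line, the PBS tumors right of it, and members (rows) ordered by role group. The column of PIIO-1 tumor 4 is red from top to bottom, those of PIIO-1 tumors 1 and 5 are mostly blue, and PBS tumor 5 is the reddest of its group.

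The order of tumors in the module matched the order of their leukocyte transcripts only in part. Ptprc, which encodes CD45 and marks leukocytes, had 7928, 13292, 10188, 17239 and 17429.7 normalized counts in PIIO-1 tumors 1 to 5, against 14609, 9056, 11047, 12735 and 11985 in PBS tumors 1 to 5. PIIO-1 tumor 4 was near the top in Ptprc and highest in the mean of the interferon members, and PIIO-1 tumor 1 was lowest for both. PIIO-1 tumor 5, with Ptprc nearly equal to that of tumor 4, had the highest Ptprc and the second lowest mean of the members. The 3 leukocyte genes summed to between 16107 and 34186 normalized counts in PIIO-1 and between 17776 and 28964 in PBS tumors. The 5 genes of plasmacytoid dendritic cells, the strongest makers of interferon-alpha, summed to 279 (tumor 1) to 559.9 (tumor 5) in PIIO-1 and 266 (tumor 2) to 451 (tumor 4) in PBS tumors. The highest of these sums was thus in PIIO-1 tumor 5, with the second lowest mean of the members, and PIIO-1 tumor 4 came next (495). The 6 macrophage genes summed to 27021 (tumor 1) to 49758 (tumor 4) in PIIO-1 and 33351 (tumor 4) to 54202 (tumor 5) in PBS tumors. PIIO-1 tumor 1 was the lowest of the 10 both for this sum and for the mean of the interferon members. PBS tumor 5 and PIIO-1 tumor 4 stood highest for both. PIIO-1 tumor 2 came close to them in the sum (48737). In the mean log2 value of the 6 genes, the measure used for the members, it stood above PIIO-1 tumor 4 (12.75 against 12.73). In the mean of the members it ranked 8 of 10 from the highest. None of these genes was called, none was at 0 in all tumors, and their part in the interferon values was not tested.

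The sums for the 5 T cell genes were 1085 (tumor 1) to 3101 (tumor 5) normalized counts in PIIO-1 and 1340.4 (tumor 4) to 3044 (tumor 1) in PBS tumors. The 5 red blood cell genes, which all had an unadjusted limma p under 0.05 and were not called, summed to 8372 to 58643 in PIIO-1 and 5488 to 12848 in PBS tumors, the top value being that of PIIO-1 tumor 5. The 5 fibroblast genes summed to 1639.5 to 5555 in PIIO-1 and 2024 to 5053 in PBS tumors, with the highest sum of all 10 in PIIO-1 tumor 1, the tumor with the lowest mean of the interferon members. The 5 neutrophil genes summed to 15271 to 36960.4 in PIIO-1 and 12825 to 26792 in PBS tumors, with the highest sum in PIIO-1 tumor 5; all 5 had a positive difference (median 0.43) and none was called. The 4 endothelial genes summed to 3561 (tumor 1) to 4874 (tumor 4) in PIIO-1 and 3239 (tumor 1) to 4526 (tumor 5) in PBS tumors. The 13 epithelial genes summed to 81496 (tumor 4) to 102204 (tumor 5) in PIIO-1 and 81173 (tumor 5) to 98109 (tumor 2) in PBS tumors, most of it Krt8 and Krt18. The lowest epithelial sums were thus in the 2 tumors with the highest mean of the interferon members. The highest was in PIIO-1 tumor 5, with the second lowest mean. PBS tumor 4 also had a low sum (84643) but ranked 7 of 10 from the highest in that mean. The part of these cells in the interferon values was not tested either.

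The members spread more widely among PIIO-1 tumors than among PBS tumors. All 36 members had a larger SD of log2 values among the 5 PIIO-1 tumors than among the 5 PBS tumors, where 58.4% of all genes did; this comparison was chosen after the values were seen, and no test was made of it. The median member had an SD of 0.284 in PIIO-1 and 0.138 in PBS tumors, beside 0.174 and 0.150 over all genes. The ratio of the SDs ran from 1.08 for Ifi27l2a to 14.2 for Dtx3l, with Ifi35 at 4.82, Usp18 at 4.36 and Herc6 at 4.34. Without PIIO-1 tumor 4 the median SD in the PIIO-1 group was 0.195, and 31 of 36 members (56.3% of all genes) still had the larger SD there. Among the marker genes, the larger SD was in PIIO-1 tumors for 3 of 3 leukocyte, 5 of 5 T cell, 5 of 5 fibroblast, 5 of 5 red blood cell, 3 of 4 endothelial, 7 of 9 epithelial, 4 of 6 macrophage, 3 of 5 neutrophil and 3 of 5 plasmacytoid dendritic cell genes. The median SD of the neutrophil genes was lower in PIIO-1 tumors (0.446, against 0.719 in PBS tumors). The part of these cells in the members' spread was not tested.

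**Figure D4:**
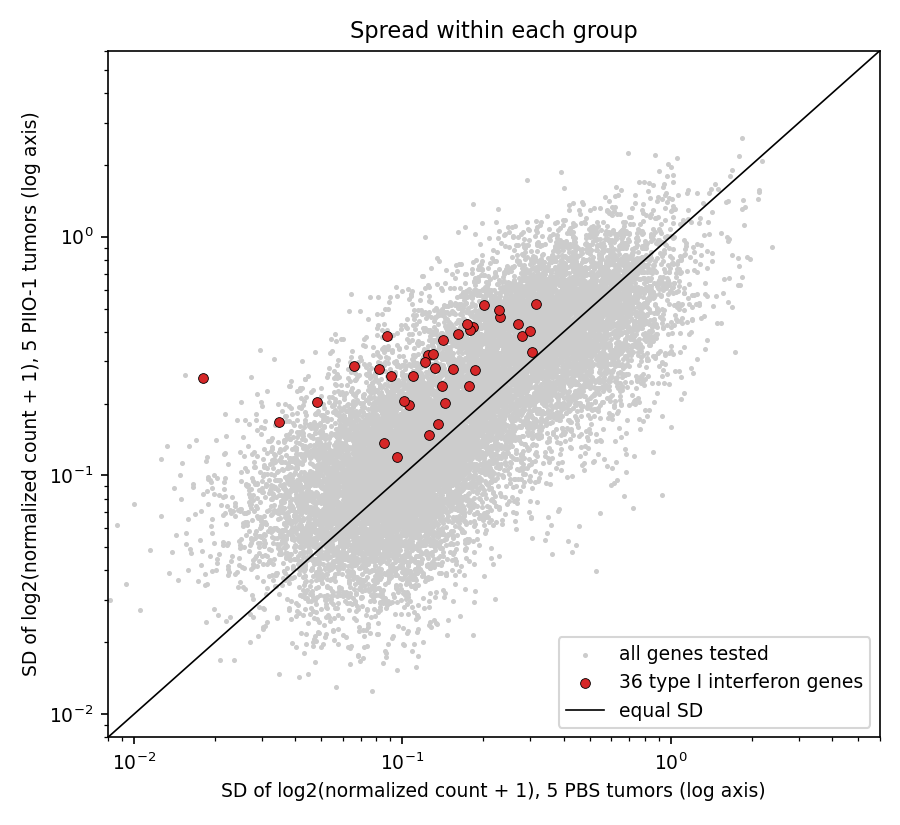
Each point is a gene, with the SD of its log2(normalized count + 1) among the 5 PBS tumors on the horizontal axis and among the 5 PIIO-1 tumors on the vertical axis, both logarithmic; the line marks equal SDs. All 36 members (red) lie above the line, with Dtx3l farthest left at 0.0181 among PBS and 0.257 among PIIO-1 tumors.

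Each tumor was left out in turn, and the difference between the groups was larger without PIIO-1 tumor 4. That tumor was the highest of the 10 for 30 of 36 members but for 11.1% of all genes. Leaving it out therefore lowers the PIIO-1 level of these members by construction. The counts below are a description, and the shares of all genes are not a like comparison for them. Without PIIO-1 tumor 4 the median difference of the members was -0.22, and 32 members were lower in PIIO-1 tumors (48.1% of all genes). In that fit 14 members had an unadjusted limma p under 0.05, where 5.4% of all genes did. In 4 of these 14 (Dtx3l, Parp9, Parp14 and Ifit2) the groups then did not overlap, against 1.88% of all genes. Dtx3l had at most 5481 normalized counts in the other PIIO-1 tumors and at least 6083 in PBS tumors, a difference of -0.32 (SE 0.066). Even so 0 members and 0% of all genes were called by limma, and the smallest adjusted p of a member was 0.497. Without PIIO-1 tumor 1 the median was -0.035 with 23 members lower, and without PIIO-1 tumor 5 it was -0.040 with 25 lower. With both of the tumors farthest from the centre left out (PIIO-1 tumor 5, PBS tumor 4) it was -0.064 with 29 lower.

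**Figure D5:**
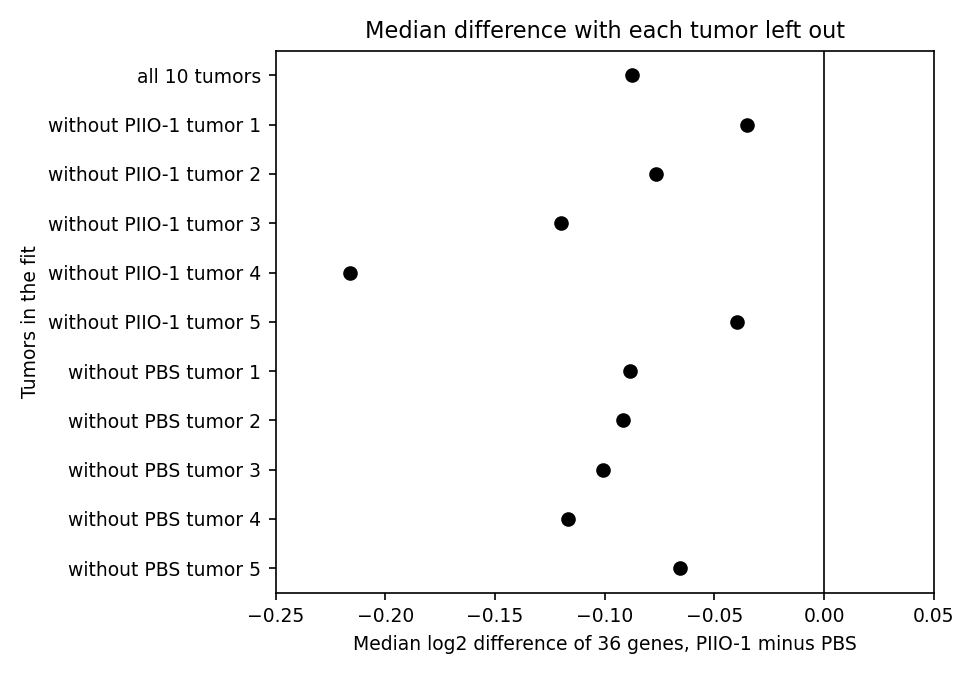
Points give the median log2 difference of the 36 members, PIIO-1 minus PBS, from limma fits with all 10 tumors or with 1 tumor left out. All medians are negative; the lowest (-0.22) is the one that leaves out PIIO-1 tumor 4, and the highest (-0.035) leaves out PIIO-1 tumor 1.

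The rest of the pathway was read from lists of its ligands, kinases, sensors and further targets. Of 18 ligand genes listed, 4 were in the table and 0 passed the filter. Ifnb1, interferon-beta, had 6.96, 6.85, 12.1, 9.53 and 15.4 normalized counts in PIIO-1 tumors 1 to 5, against 1.91, 6.83, 12.2, 1.56 and 14.6 in PBS tumors 1 to 5, which rests on at most 17 reads a tumor. Ifna1 had 7 reads in PIIO-1 tumor 4 and at most 1 in every other tumor of either group, and Ifna2 and Ifna4 had at most 6 reads in any tumor. At this depth no difference in ligand transcripts could be read.

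Of the 7 genes for kinases and negative regulators, limma called 0 (also 0 at an unadjusted p under 0.05), 6 were higher and 1 lower, with a median difference of 0.019. Jak1 and Tyk2 differed by 0.028 (SE 0.059) and 0.091 (SE 0.095). Socs3, a feedback inhibitor of JAK kinases, differed by 0.30 (SE 0.15). Of 17 genes that lead to interferon, limma called 0 (1, Tlr3, at an unadjusted p under 0.05), 10 were higher and 7 lower, with a median of 0.013; Tlr3, an endosomal sensor of double-stranded RNA, differed by -0.32 (SE 0.10) and Mavs, the adaptor of the RNA helicases, by -0.11 (SE 0.069).

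Of 39 further interferon-stimulated genes, limma called 0, 14 were higher and 25 lower, with a median of -0.083, beside -0.088 over the members. Parp11 differed by -0.31 (SE 0.10) and Ube2l6, the conjugating enzyme for ISG15, by -0.25 (SE 0.093), and 6 of the 39 had an unadjusted limma p under 0.05, beside 5.63% of all genes. In 25 of them PIIO-1 tumor 4 was the highest of the 10 tumors, and 38 had the larger SD among PIIO-1 tumors, beside 11.1% and 58.4% of all genes. These traits were not particular to the stimulated genes. PIIO-1 tumor 4 was also highest for 9 of the 17 genes that lead to interferon and for 4 of the 7 kinases and negative regulators. The larger SD was in PIIO-1 tumors for 15 of these 17 and 6 of these 7.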

How the data were processed

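RNA of 10 whole tumors was sequenced in bulk. The authors deposited a signal per gene and tumor, namely read counts divided by a size factor of each library (normalized counts). HISAT2, featureCounts, DESeq2 and build GRCm38 are named in the submitters' processing notes; for the versions, annotation and strand setting, nothing was found in the labels or the file header. Groups came from the treatment label and numbers from the titles. Each column was divided by its step to recover whole reads (100% of values whole within 0.001 read). limma 3.58.1 (R 4.3.3, intensity trend) was fitted to log2(value + 1) of genes with a mean of at least 10, with p-values two-sided, adjusted by Benjamini-Hochberg and called under 0.05; such differences understate those of low genes. Counts of calls and differences were recomputed with edgeR 4.0.16 and DESeq2 1.42.0 on whole reads, other pseudocounts (0.5, 5), filters (none, 50) and scalings (TMM, upper quartile), other limma settings (no trend, array weights, a replicate block), and with tumors left out; counts of larger SDs and of groups apart were recomputed under the settings that change values or tumors. Scripts were tested on simulated data. One gene of the pathway is not reported here. Members, lists, tests and alternatives were chosen with earlier results of these data known. Values in every tumor are given for the member with the highest mean and that with the smallest p in each role group and for the 2 most negative and 2 most positive differences; Dtx3l and the promoters shown were chosen after their values were seen. All 36 members matched 1 gene of GENCODE M21 (GRCm38), and 13 share exon bases with another gene: Ifnar2, Irf9, Irf7, Dhx58, Eif2ak2, Oasl1, Usp18, Herc6, Parp14, Parp9, Dtx3l, Ifi35 and Rtp4.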

Additional observations from a re-analysis of the deposited data

Results flagged for a closer look

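A sample stood far from the other 4 of its group in 3 of 74 groups examined (36 members and their mean in each treatment), and chance alone sets apart about 1 in 20 groups. PBS tumor 5 had 3702 normalized counts of Ifnar1, with 3233 in the nearest other PBS tumor. It also had 3568 of Dhx58, with 3027 next to it. PBS tumor 4 had 2214 of Ifi27l2a, with 3379.6 next to it. No PIIO-1 tumor stood apart in this way for any member, and these values were not used for any call.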

How the results depend on the processing

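No member was called under any of 22 alternatives; the smallest adjusted p was 0.497 with 1 tumor left out and 0.700 otherwise. Over all genes DESeq2 called 3 and the other settings 0. The median difference of the members was negative in every fit, from -0.22 to -0.035 with 1 tumor left out and -0.064 with PIIO-1 tumor 5 and PBS tumor 4 both left out. The number of members whose groups do not overlap ran from 0 to 4 with 1 tumor left out. The 4 came without PIIO-1 tumor 4, where 1.88% of all genes had groups that do not overlap. Without that pair the number was 1, where 2.34% of all genes had such groups. Fewer samples are compared in these fits. The number with the larger SD in PIIO-1 tumors ran from 31 to 36. Single differences near 0 changed sign: 0.0030 for Ifih1, 0.024 for Mx2 and 0.025 for Rsad2 by DESeq2; 0.073 for Eif2ak2, 0.0054 for Ifi35, -0.053 for Ifnar2 and 0.13 for Mx2 with that pair left out; 0.018 for Mx2 and 0.019 for Rsad2 by edgeR; 0.0060 for Eif2ak2, 0.0022 for Ifih1 and 0.066 for Mx2 with array weights. With 1 tumor left out, the sign changed for Eif2ak2 (-0.11 to 0.025), Ifi27l2a (-0.059 to 0.16), Ifi35 (-0.11 to 0.0023), Ifih1 (-0.22 to 0.10), Irf7 (-0.21 to 0.052), Irf9 (-0.058 to 0.017), Isg15 (-0.22 to 0.042), Mx2 (-0.16 to 0.094), Oas1a (-0.13 to 0.013), Oasl1 (-0.22 to 0.038), Rsad2 (-0.16 to 0.11) and Trim30a (-0.15 to 0.055). The cause was not tested. Same-numbered tumors of the 2 groups did not deviate together (correlations of -0.206 to 0.0954; 0 of 5 PIIO-1 tumors correlated best with their own number), and with the replicate number as a block 0 members were called and 1 had an unadjusted limma p under 0.05, against 2 without it. Counted on the sense strand alone, 7 members held the response element in place of 12. That is 26.9% of the 26 members with a window, against 2.06% of the 27025 genes of the promoter table. Depth limits the ligand genes (at most 17 reads a tumor) and not the members (at least 462 reads).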
